A study of Homo sapiens with 8 samples.

Results

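The genes described here are 10 genes of the actin cytoskeleton and their regulator: the actins ACTB and ACTG1, the actin-monomer and filament-turnover proteins PFN1, CFL1, TMSB4X and TMSB10, the filament-binding proteins CORO1A and LCP1, the intermediate filament protein VIM, and the transcription factor SRF. They were chosen by name, each represented by the 3′ UTR segment with the most reads, and are 10 of the 15380 genes with a read. All 10 passed the count filters of each test. The cells were THP-1, a human line from acute monocytic leukaemia. Cells of 7 libraries received 30 uM 4-thiouridine (4sU, a uridine analogue that enters new RNA) for 12 h with the medium exchanged every 3 h, were washed, and were then kept in medium with 3 mM uridine and harvested at 0 h, 20 min, 40 min, 1 h, 2 h, 8 h and 12 h of this chase. The remaining library came from cells without 4sU, and each of these 8 conditions had 1 library, so no difference between a pair of conditions has a replicate check. In SLAM-seq the incorporated 4sU is alkylated and is then read as a T-to-C change. Reads carrying such changes are called labelled here, and libraries were primed at the 3′ end of the mRNA.

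Actin monomers and filaments exchange constantly in a moving cell. Profilin (PFN1) loads monomers onto growing filaments, the thymosins hold monomers in reserve, and cofilin (CFL1) severs old filaments. In leukocytes, coronin 1A (CORO1A) and L-plastin (LCP1) bind and bundle filaments at the cell cortex. SRF binds the CArG box, a DNA element in the promoters of actin genes and of serum-induced genes. Its coactivator MRTF is kept inactive by free actin monomers, so that the actin pool feeds back on the transcription of actin genes.

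Libraries held 8301033 to 11224018 gene reads during the chase and 2916043 without 4sU. Over all genes, 30.6% of reads were labelled at 0 h and 5.53% at 12 h, against 0.0121% without 4sU. The library without 4sU stood apart in content as well as in depth: of 9984 genes with enough reads, 19.1% had at least 2 times its CPM (gene reads scaled to a common library size) at 0 h and 18.0% had at most 0.5 times. The 11 monocytic markers looked up were all detected, 9 of them over 10 CPM in every library, and summed to 1640 to 2000 CPM during the chase, against 419 CPM without 4sU. Markers of T and NK cells (5 of 7 detected), B cells (4 of 4), erythroid cells (3 of 4), epithelial cells (2 of 4) and fibroblasts or smooth muscle (5 of 5) each summed to 9.6 CPM or less in every chase library and to 12.7 CPM or less without 4sU. CD3E, CD2, HBB, KRT5 and KRT14 had no read in any library. In such bulk libraries, fewer cells that express a gene and less of its RNA per cell cannot be told apart.

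Both cytoplasmic actins lost label over the chase, and at 12 h the labelled share was 12.2% for ACTB and 4.51% for ACTG1. ACTB encodes beta-actin and was counted on a segment that starts at position 5566782 of chromosome 7 (hg19, minus strand). In the order of the chase times given above, its labelled share was 18.0, 18.0, 19.1, 19.7, 19.2, 17.7 and 12.2%, against 0.01% without 4sU. The share of ACTB was thus higher at 1 h than at 0 h, and only the 12 h library lay clearly below the others. ACTG1 encodes gamma-actin and was counted from position 79476997 of chromosome 17 (minus strand). Its share was 38.8, 39.0, 39.6, 40.8, 41.1, 18.2 and 4.51% over the chase, with 0 labelled of 15614 reads without 4sU, which allows a share of up to 0.019%. The exact 95% binomial intervals of the actins do not overlap at 0 h (17.6 to 18.4% for ACTB, 38.4 to 39.3% for ACTG1), overlap at 8 h (17.3 to 18.1% and 17.8 to 18.5%), and lie in the opposite order at 12 h (11.8 to 12.6% and 4.31 to 4.71%). They cover counting error only, since reads without molecular identifiers are not independent molecules.

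The decline of the labelled share was tested in edgeR with a quasi-likelihood fit against hours in which each gene's own total is the reference, and p-values were adjusted by Benjamini-Hochberg over all 9402 genes tested. The label of ACTG1 fell by 0.235 ± 0.021 on the log2 scale per hour (SE, adjusted p = 1.53e-10) and that of ACTB by 0.042 ± 0.012 per hour (adjusted p = 0.00177). The difference between these slopes was not tested. Without the 12 h library the ACTB slope was -0.009 per hour (adjusted p = 0.408), whereas ACTG1 kept its call with a slope of -0.147 (adjusted p = 7.98e-08, edgeR). The label half-life of ACTG1, from an exponential fit to the labelled share, was 5.32 ± 1.04 h, and 7.43 h without the 12 h library. A single exponential described this course poorly, since the share did not fall through 2 h. The scatter about the fit (Pearson dispersion) was 652 times counting error for ACTG1, and 6.20 to 53.1 times for the other members. That of ACTB was not resolved: the fit gave 27.7 ± 9.8 h, above the 24 h taken as the longest resolved value, with 19.7 h without the 8 h library, 20.3 h over 1 to 12 h alone and 119 h without the 12 h library. A half-life of the share counts dilution by new unlabelled RNA as loss, and misses a loss that labelled and unlabelled RNA have in common. Fitted to labelled CPM (labelled reads per library total) in place of the share, the values were 12.8 ± 1.6 h for ACTB and 4.47 ± 0.60 h for ACTG1. The annotated ends of both actin mRNAs have like T content, with 87 of the last 250 bases being T for ACTB and 89 for ACTG1 in GENCODE 29.

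**Figure D1:**
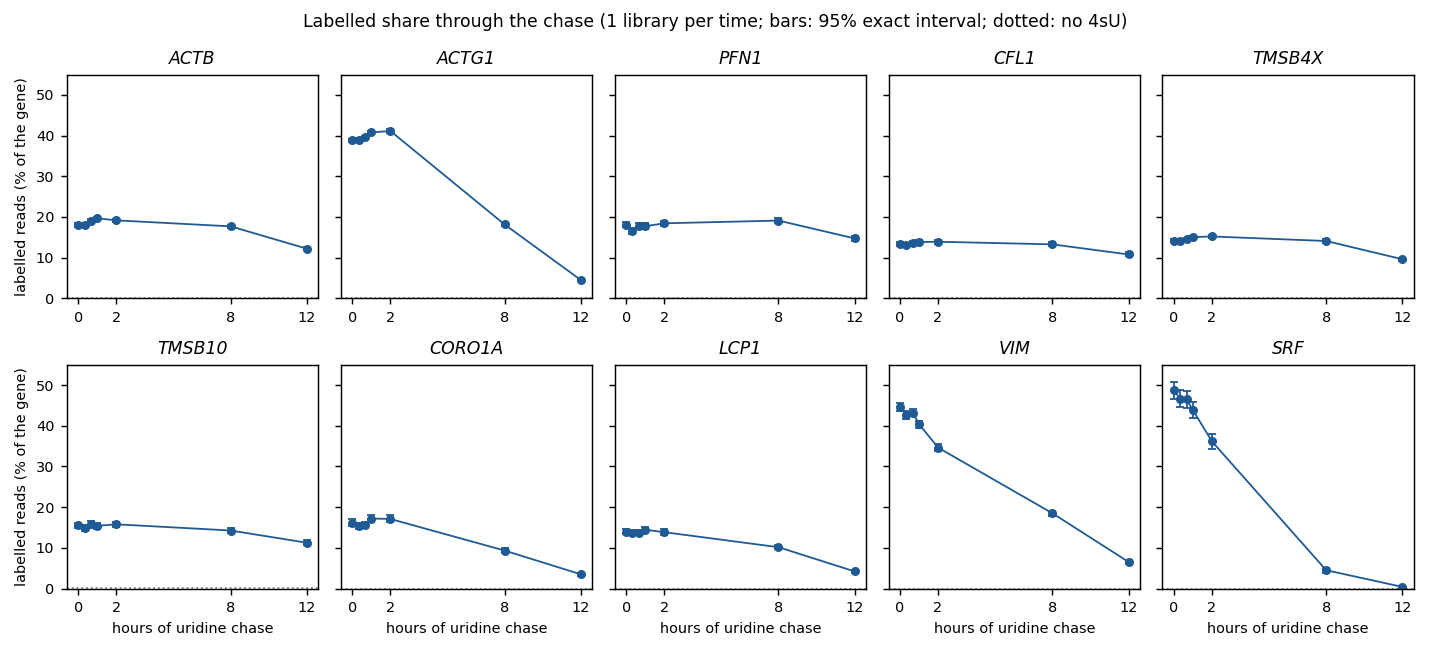
Labelled share of each gene (y axis, percent of the gene's reads) against hours of chase (x axis), with 1 library per point, 95% exact binomial intervals as bars and the library without 4sU as a dotted line. SRF, VIM and ACTG1 start at 38.8% or more and end at 6.54% or less, whereas ACTB, PFN1, CFL1, TMSB4X and TMSB10 stay between 9.61% and 19.7%.

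Of the 10 genes, 8 lost label by this test and the other two, PFN1 and CFL1, did not pass it, where 95.3% of all genes tested declined. Among the genes that handle monomers, PFN1 had labelled shares of 18.1, 16.5, 17.9, 17.7, 18.4, 19.1 and 14.7% over the chase (slope -0.012 ± 0.013 log2 per hour, adjusted p = 0.381, edgeR). CFL1 had 13.5%, 13.1%, 13.6%, 13.8%, 13.9%, 13.3% and 10.8% in that order (slope -0.022 ± 0.013, adjusted p = 0.103, edgeR). For both genes the 6 libraries from 0 to 8 h lay within a narrow range and the 12 h library was lowest. Leaving out the 8 h library made the CFL1 decline pass (adjusted p = 0.0168, edgeR). Labelled reads were also set against the library total, scaled by TMM factors (described below), rather than that of the gene. Both genes then passed (adjusted p = 2.58e-05 for CFL1 and 0.000309 for PFN1, edgeR).

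TMSB4X, the main thymosin of blood cells, had 14.2, 14.0, 14.6, 15.1, 15.2, 14.1 and 9.61% over the chase, against 0.01% without 4sU. TMSB10, a relative that also binds monomers, had 15.5%, 14.9%, 15.9%, 15.4%, 15.8%, 14.3% and 11.3% in that order, against 0.24% without 4sU (3 labelled of 1234 reads). Through 8 h the share of TMSB4X stayed between 14.0 and 15.2%, and that of TMSB10 was lowest at 8 h. Their labels declined over the whole chase, by 0.039 ± 0.012 (adjusted p = 0.00418) and 0.034 ± 0.014 log2 per hour (adjusted p = 0.0253, edgeR). Neither decline passed without the 12 h library (adjusted p = 0.714 and 0.312), and that of TMSB10 also failed without the 40 min library (adjusted p = 0.0577). Neither half-life was resolved. The fit for TMSB4X gave 28.0 ± 10.2 h, with 20.1 h without the 8 h library, 20.6 h over 1 to 12 h alone and 269.9 h without the 12 h library. That for TMSB10 gave 31.4 ± 7.5 h, with 25.1 h without the 8 h library and 67.0 h without the 12 h library.

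The filament-binding genes of leukocytes fell in between. CORO1A had labelled shares of 16.2, 15.4, 15.6, 17.2, 17.1, 9.33 and 3.50% over the chase. LCP1 had 14.0%, 13.7%, 13.7%, 14.5%, 13.9%, 10.2% and 4.20% in that order. The early shares of both resemble those of PFN1 and CFL1, and the late shares of both lie below them. The label fell by 0.167 ± 0.022 log2 per hour for CORO1A (adjusted p = 8.93e-08), and that of LCP1 fell by 0.123 ± 0.020 (adjusted p = 2.69e-06, edgeR). Half-lives were 6.78 ± 1.22 h for CORO1A and 9.08 ± 1.90 h for LCP1. Without the 12 h library the LCP1 value was 17.0 h and the CORO1A value 9.90 h, with label slopes of -0.060 for LCP1 and -0.102 for CORO1A that still passed (adjusted p = 0.00151 and 0.000107, edgeR). CORO1A is the poorest in T at the annotated transcript end, with 40 of the last 250 bases. TMSB10 has 52, CFL1 62, PFN1 and LCP1 75 each, TMSB4X 76, VIM 84 and SRF 88. These bases need not be the ones read. For CFL1, a segment that starts at position 65622308, short of that end, held 99.7% of the reads at 0 h.

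VIM, which encodes the intermediate filament protein vimentin, and SRF had the highest labelled shares of the 10 genes at 0 h. In both genes the share fell already within 2 h. VIM had labelled shares of 44.6, 42.7, 43.2, 40.4, 34.6, 18.5 and 6.54% over the chase. SRF had 48.7, 46.7, 46.5, 43.8, 36.2, 4.50 and 0.40% over the chase, the last from 13 labelled of 3250 reads. In both the 2 h library already lay below every earlier one. The label of SRF fell by 0.515 ± 0.032 log2 per hour (adjusted p = 5.85e-13) and that of VIM fell by 0.212 ± 0.017 (adjusted p = 1.53e-11, edgeR). With the 0 to 2 h libraries alone these were the only members that passed. The half-life of SRF was 2.32 ± 0.27 h, where the median of 8831 resolved genes was 2.72 h, and that of VIM was 5.29 ± 0.47 h. With the 0 to 2 h libraries alone the SRF value was 4.71 ± 0.64 h. Scaled by TMM factors, labelled VIM reads were 531 CPM at 0 h and 549 CPM at 2 h. Labelled SRF reads were 119.5 and 108.5 CPM. Unlabelled reads rose from 661 to 1035 CPM for VIM and from 126 to 192 CPM for SRF. The early fall of these shares thus went with a rise of unlabelled reads, and is not a measure of decay alone.

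Measured as the label kept, the genes spread from percentile 37.6 to percentile 98.7 of all genes tested. Relative to the pooled share of the 0, 20 and 40 min libraries, the 8 h library held 109% for PFN1, 99.2% for CFL1, 98.6% for TMSB4X, 96.3% for ACTB, 92.5% for TMSB10, 73.8% for LCP1, 59.4% for CORO1A, 46.4% for ACTG1, 42.6% for VIM and 9.53% for SRF. The median of all genes tested was 14.1%. The first 5 of these lay at percentile 96.3 to 98.7 of all genes and SRF at percentile 37.6. At 12 h PFN1 still held 84.2%, ACTB 66.4%, ACTG1 11.5% and SRF 0.847%, against a median of 3.14%. At 0 h, 7 of the 10 genes had labelled shares of 18.1% or less, at or below percentile 10.7, and the median gene had 44.5%. Shares differ with the segment read, with 14.2% and 4.90% at 0 h for the distinct segments of TMSB4X. Ranks of the share between genes therefore cannot be read as label uptake alone. Labelled CPM also follows the total, and is taken here per library total, without TMM factors. At 8 h it was 72.1% of its 0 to 40 min level for ACTB, 86.6% for PFN1, 83.4% for CFL1, 71.4% for TMSB4X and 84.9% for TMSB10. The TMM factors were 0.958 at 0 h and 1.10 at 8 h, so with them these percentages would be lower.

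**Figure D2:**
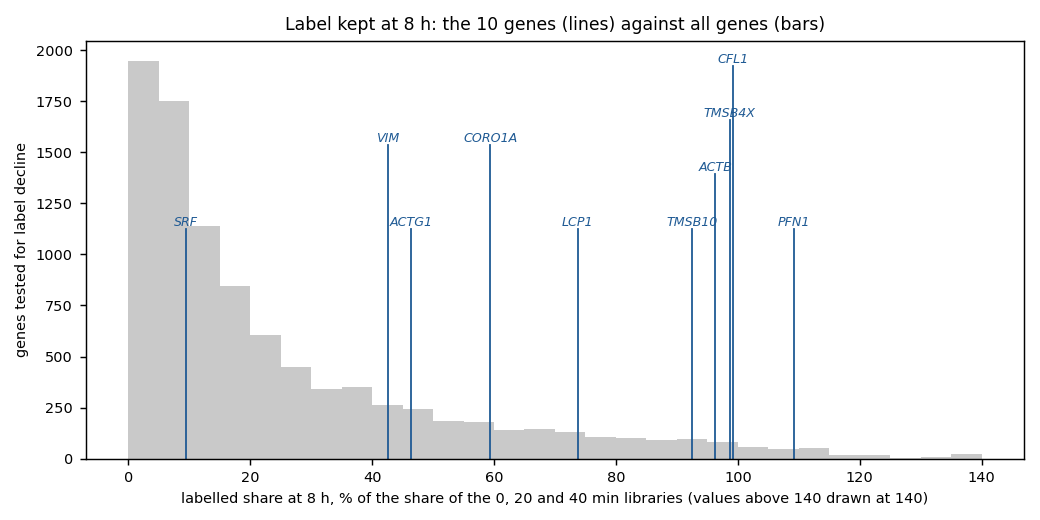
Labelled share at 8 h as a percentage of the pooled share of the 0, 20 and 40 min libraries (x axis) for all 9402 genes tested (grey bars, y axis: genes) and for each member (blue lines, whose heights carry no meaning). PFN1, CFL1, TMSB4X, ACTB and TMSB10 stand at 92.5% or more and SRF at 9.53%, and the median of all genes is 14.1%.

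Total levels of the actin and monomer-handling genes were lower late in the chase, and those of SRF and CORO1A were higher. Levels are given as CPM scaled by TMM factors, which correct for differences in library composition. ACTB had 4055, 3921, 3830, 3721, 3709, 2564 and 2695 CPM over the chase. ACTG1 had 5806, 5960, 5744, 5467, 5144, 4087 and 4557 CPM in that order. TMSB4X had 4116, 4160, 4135, 3954, 3756, 2611 and 3336 CPM. In each of these genes both late libraries lay below all 5 earlier ones. PFN1 ranged from 1428 to 1568 CPM through 2 h and had 1057 CPM at 8 h and 1235 CPM at 12 h. CFL1 ranged from 2136 to 2288 CPM through 2 h and had 1655 and 1756 CPM at 8 and 12 h. TMSB10 ranged from 1270 to 1386 CPM through 2 h and had 1086 and 1192 CPM.

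In a straight-line fit of total counts against hours in edgeR, adjusted over 10643 genes, 8 of the 10 genes changed, where 51.3% of all genes did. Of these 8, 6 fell and 2 rose, against 23.9% and 27.4% of all genes. Expressed over 12 h on the log2 scale, ACTB fell by 0.62 ± 0.08 (adjusted p = 0.000123), TMSB4X by 0.43 ± 0.12 (adjusted p = 0.0114), CFL1 by 0.42 ± 0.08 (adjusted p = 0.000934), ACTG1 by 0.41 ± 0.09 (adjusted p = 0.00224), PFN1 by 0.39 ± 0.10 (adjusted p = 0.00612) and TMSB10 by 0.21 ± 0.07 (adjusted p = 0.0306). Scaling by library totals alone moves the median gene to 0.18, in place of 0.02, and calls 3822 genes rising and 1793 falling, in place of 2919 and 2544. With it ACTB, ACTG1, CFL1, PFN1 and TMSB4X still fell, and TMSB10 did not pass (adjusted p = 0.361). Without the 12 h library the slopes were steeper, with -0.080 log2 per hour in place of -0.036 for TMSB4X, -0.063 in place of -0.033 for PFN1, -0.060 in place of -0.034 for ACTG1, -0.053 in place of -0.035 for CFL1 and -0.035 in place of -0.018 for TMSB10. Without the 8 h library those of TMSB4X and PFN1 were both -0.022. The TMSB10 fall also failed without the 0 h, the 20 min or the 40 min library (adjusted p = 0.0644 to 0.0767).

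The total level of SRF rose, with 245, 251, 258, 285, 300.1, 350 and 366 CPM over the chase, against 382 CPM without 4sU. Every later library was above the one before it, and the 12 h library was close to the level without 4sU. The rise was 0.59 ± 0.10 log2 over 12 h (adjusted p = 0.000419, edgeR). Its unlabelled reads went up more, with 126 CPM at 0 h, 192 CPM at 2 h and 364 CPM at 12 h. Unlabelled reads include RNA made before the pulse, RNA made after it and labelled RNA without a detected conversion. Its labelled reads stayed at 108 to 125 CPM through 2 h and were at 15.7 CPM at 8 h and 1.5 CPM at 12 h.

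CORO1A had 988, 953, 922, 834, 822, 1042 and 1201 CPM over the chase. The level first went down and was above its start in both late libraries. The line rose by 0.41 ± 0.09 log2 over 12 h (adjusted p = 0.00305), not without the 12 h library (adjusted p = 0.106), and over 0 to 2 h alone it fell (slope -0.120 log2 per hour, adjusted p = 0.0163, edgeR). LCP1 had 1342, 1313, 1342, 1299, 1166, 1004 and 1271 CPM from 0 h to 12 h, lowest at 8 h. Its line was -0.14 ± 0.11 over 12 h (adjusted p = 0.282), with a slope of 0.001 log2 per hour when scaled by library totals, and without the 12 h library LCP1 passed as falling (adjusted p = 0.000342).

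VIM had 1192, 1151, 1222, 1379, 1584, 1140 and 969 CPM over the chase. Its level peaked at 2 h, at 1.33 times that of 0 h, and ended below its start. The straight line did not pass (-0.33 ± 0.16, adjusted p = 0.106), and passed without the 2 h library (adjusted p = 0.038). Over 0 to 2 h alone VIM rose by 0.254 log2 per hour (adjusted p = 7.69e-05, edgeR). Unlabelled VIM reads were 661 CPM at 0 h and 1035 CPM at 2 h, and labelled ones 531 and 549 CPM. A curve with a second-degree term in log2(hours + 1) was fitted to catch such courses, and 9 of the 10 genes changed by it, all but LCP1 (adjusted p = 0.136), where 51.8% of all genes did. VIM passed with adjusted p = 0.00129, SRF with 3.62e-05, ACTB with 7.26e-05 and CORO1A with 0.000111 (edgeR). TMSB10 passed with 0.0308 and failed with library totals (adjusted p = 0.344) and without the 0 h, 20 min, 40 min or 1 h library (adjusted p = 0.0526 to 0.109), and LCP1 passed without the 12 h library (adjusted p = 0.000125).

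**Figure D3:**
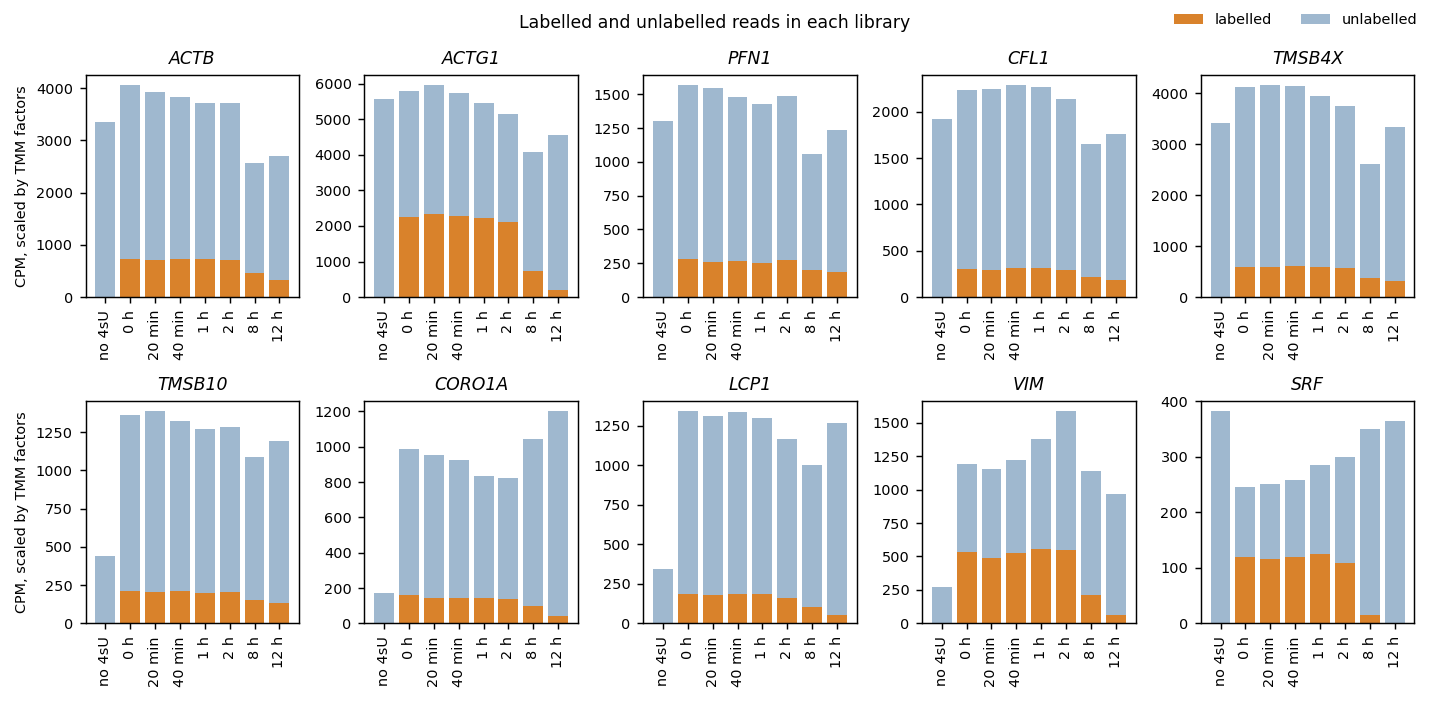
Labelled (orange) and unlabelled (blue) reads of each gene, stacked, as CPM scaled by TMM factors (y axis, from 0, a scale of its own for each gene) in the 8 libraries (x axis). Total SRF stands at 245 CPM at 0 h and 366 CPM at 12 h, VIM peaks at 1584 CPM at 2 h, and TMSB10, CORO1A, LCP1 and VIM are lowest without 4sU.

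The promoters of these genes were searched for the CArG box bound by SRF, since SRF and an actin are both members. RefSeq promoters (GRCh38.p14, 250 bases before to 50 after a gene's start) matched 9 of the 10 genes, with 10 promoters because SRF has a pair of starts. The box, in its strict form, was in 2 of the 10 promoters, those of SRF (its upstream start) and ACTG1, and in 1.29% of all 35116 promoters. The genes were chosen by name and include actins, whose promoters are known to hold the box. The higher share among them is thus no result of these data. The box reads the same class of letters on both strands, so 1 search covers both. Shown are the 120 bases before the start for both genes with a box, and for CORO1A, the other gene whose total rose, which has none. Boxes are in capitals.
SRF: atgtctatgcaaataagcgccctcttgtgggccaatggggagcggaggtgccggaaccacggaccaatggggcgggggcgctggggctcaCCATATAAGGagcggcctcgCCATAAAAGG
ACTG1: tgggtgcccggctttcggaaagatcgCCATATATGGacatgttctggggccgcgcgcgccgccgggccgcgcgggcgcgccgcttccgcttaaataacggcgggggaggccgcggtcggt
CORO1A: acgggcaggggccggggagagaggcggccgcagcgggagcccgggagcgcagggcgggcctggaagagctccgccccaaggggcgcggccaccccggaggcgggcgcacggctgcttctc
The windows are chr6:43171149-43171268 (plus strand) for SRF, chr17:81512800-81512919 (minus) for ACTG1 and chr16:30183482-30183601 (plus) for CORO1A. In SRF the boxes begin 30 and 10 bases before the start, and in ACTG1 the box begins 94 bases before it. The gene with a pair of boxes rose over the chase and the gene with a single box fell. With 2 such genes and no promoter for ACTB, a link between the box and the direction of total level was not tested. A match of letters does not show binding.

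At the end of the pulse, 4 of the 10 genes were at 3.09 to 5.69 times their level in cells without 4sU. These ratios use CPM without TMM factors. CORO1A had 946 CPM (8243 reads) at 0 h, against 166 CPM (485 reads) without 4sU, a ratio of 5.69 (exact 95% interval 5.19 to 6.25, counting error only). VIM had 1142 CPM at 0 h, against 261 CPM, a ratio of 4.37 (4.06 to 4.71). LCP1 had 1285 CPM at 0 h, against 332 CPM, a ratio of 3.87 (3.62 to 4.13). TMSB10 had 1308 CPM at 0 h, against 423 CPM, a ratio of 3.09 (2.91 to 3.28). These 4 ratios lie at percentiles 91.0 to 96.9 of the 9984 genes compared, of which 19.1% had a ratio of 2 or more. The remaining genes differed little, with ratios of 1.20 for ACTB, TMSB4X and PFN1, 1.16 for CFL1 and 1.04 for ACTG1. SRF was lower at 0 h, with 235 CPM against 367 CPM without 4sU (ratio 0.64, 0.59 to 0.69).

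After 12 h of chase the library stood at 7.73 times the level without 4sU for CORO1A, 4.10 times for LCP1, 3.97 times for VIM and 3.02 times for TMSB10, and at 1.07 times for SRF. The summed monocytic markers moved the same way between these libraries, as given above, and their part in these ratios was not tested. With 1 library on each side no test was possible.

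**Figure D4:**
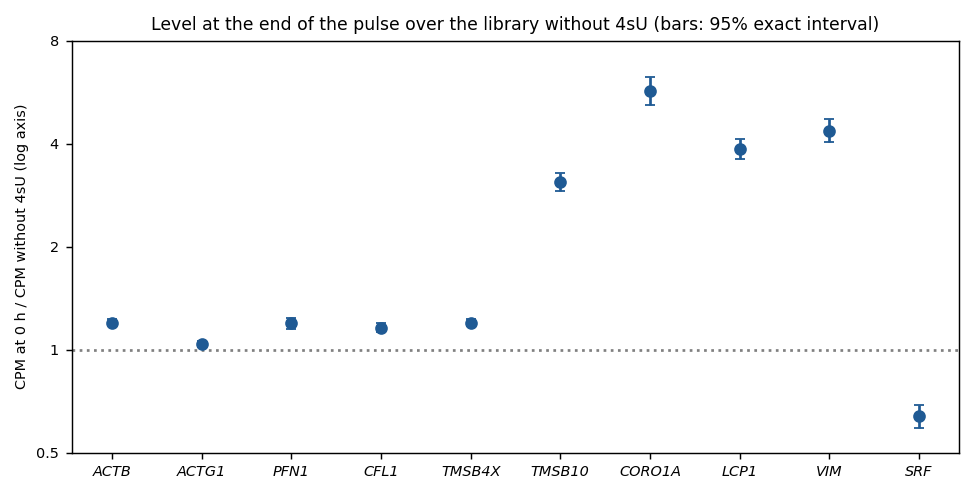
CPM at 0 h divided by CPM without 4sU for each gene (y axis, log axis), with exact 95% intervals for counting error as bars and equality as a dotted line. CORO1A, VIM, LCP1 and TMSB10 lie between 3.09 and 5.69, ACTB, ACTG1, PFN1, CFL1 and TMSB4X between 1.04 and 1.20, and SRF at 0.64.

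The place of the reads along the CFL1 mRNA also set the library without 4sU apart. CFL1 has 7 segments with distinct counts on chromosome 11. The segment that starts at position 65622446 (hg19) held 49.5% of the reads of the full one, which starts at 65622146, at 0 h (exact 95% interval 48.8 to 50.2%), and 48.6 to 52.0% in all chase libraries. Without 4sU it held 7.2% (6.5 to 7.9%). CFL1 is on the minus strand, so this segment ends short of the 3′ end that the full one covers. The distinct segments of CORO1A, ACTG1 and LCP1 are nearly as full as the main one and showed no such shift. That of CORO1A, for example, held 98.1% without 4sU and 98.0% at 0 h. In TMSB4X, both distinct segments start at position 12994931 of chromosome X, and the one of transcript ENST00000380633 held 34.5% of the reads of the fuller one at 0 h, against 38.0% without 4sU. That segment had 4.90% labelled reads at 0 h, against 14.2% over the fuller one, and 2.96% against 9.61% at 12 h. The labelled share thus differed between segments of the same gene.

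Other genes of the cytoskeleton were summarised in lists chosen with earlier results of these data known. The counts below stand against 95.3% of all genes that lost label, and 27.4% that rose and 23.9% that fell in total level. The Arp2/3 complex, which starts filament branches, lost label in 9 of 9 genes, near the 95.3% of all genes, with a median half-life of 6.41 h, against 2.72 h for all genes. ARPC5L was its fastest subunit (2.55 ± 0.38 h) and ARPC3 its slowest (18.3 ± 4.47 h), and ARPC4, the most counted, had 5.95 ± 1.23 h. Its totals rose in 3, fell in 2 and passed in neither direction in 4 of 9, with ARPC5 rising by 0.31 ± 0.09 log2 over 12 h (adjusted p = 0.0156) and ARPC5L falling by 0.35 ± 0.08 (adjusted p = 0.00478, edgeR), a fall that did not pass when scaled by library totals.

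Of the other monomer, capping and severing proteins, 17 of 19 (89.5%) lost label, against 95.3% of all genes, with a median half-life of 4.30 h. Among the enzymes that act on cofilin, SSH1, a phosphatase that activates it, had 1.83 ± 0.17 h and LIMK2, a kinase that inactivates it, 1.89 ± 0.29 h. Their relatives, named after their values were seen, had 1.92 ± 0.20 h (SSH2), 3.26 ± 0.65 h (SSH3) and 4.70 ± 0.58 h (LIMK1). In total level, SSH1 rose by 0.86 ± 0.15 (adjusted p = 0.000523) and LIMK2 by 1.00 ± 0.18 log2 over 12 h (adjusted p = 0.000833, edgeR). SSH3 fell by 0.44 ± 0.16 (adjusted p = 0.0356), and SSH2 (0.40 ± 0.23, adjusted p = 0.165) and LIMK1 (-0.12 ± 0.11, adjusted p = 0.347, edgeR) did not pass, so these families had no common direction. The SSH3 fall did not pass when scaled by library totals. CAPG, which caps filament ends, was slow (15.5 ± 3.60 h), and CAP1, which recycles monomers and was the most counted, had 7.64 ± 1.07 h. DSTN, the close relative of cofilin, fell in total by 0.54 ± 0.08 (adjusted p = 0.000247) and had a label slope of -0.043 log2 per hour (adjusted p = 0.0537). Totals of this list rose in 4, fell in 5 and passed in neither direction in 12 of 21, where 27.4% of all genes rose and 23.9% fell.

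Filament-binding and crosslinking genes lost label in 29 of 33, with a median half-life of 4.98 h, and their totals rose in 9 and fell in 9 of 35, or in 16 and 6 when scaled by library totals. Among the linkers between filaments and the membrane, MSN had a half-life of 22.4 ± 6.47 h and RDX of 2.12 ± 0.38 h. TAGLN2, the most counted, kept 94.9% of its share at 8 h and did not pass (adjusted p = 0.129). ENAH, which extends filaments, had a total that fell by 0.88 ± 0.17 (adjusted p = 0.00113), and PLS1, a relative of LCP1 with few reads, rose by 1.91 ± 0.43 (adjusted p = 0.00327, edgeR). Nucleation factors and formins lost label in 18 of 18, near the 95.3% of all genes, with a median half-life of 3.31 h. Values ran from 1.71 ± 0.36 h for the formin DAAM1 to 14.6 ± 2.51 h for the GTPase RHOA. Total DAAM1 went from 22.9 CPM at 1 h to 79.7 CPM at 2 h, while its labelled share went from 50.7 to 21.9%. Its half-life counts dilution by new unlabelled RNA as loss. Totals of this list rose in 8 and fell in 3 of 21. The largest called rise was that of the formin FMNL2 (1.71 ± 0.41, adjusted p = 0.00483, edgeR). The largest called fall was that of WASL, an activator of Arp2/3 (-1.07 ± 0.31, adjusted p = 0.0133, edgeR). FMNL2 and WASL had few reads, with means of 47.6 and 34.7. Genes akin to VIM lost label in 4 of 4 with a median of 3.50 h. LMNA, which encodes lamins A and C, had 4.32 ± 0.32 h and rose by 0.99 ± 0.22 log2 over 12 h (adjusted p = 0.00313, edgeR), and PLEC, a linker of intermediate filaments, had 2.50 ± 0.39 h.

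Around SRF, 3 of 3 cofactors tested lost label: MRTFA, the actin-sensing coactivator, had 1.86 ± 0.35 h, and the ternary complex factors ELK4 and ELK3 had 2.35 ± 0.28 h and 2.63 ± 0.42 h. In total level ELK4 rose by 0.39 ± 0.11 (adjusted p = 0.0108) and ELK3 fell by 0.63 ± 0.14 log2 over 12 h (adjusted p = 0.00233, edgeR). Listed SRF targets other than members lost label in 15 of 17 with a median of 3.00 h, from 1.08 ± 0.16 h for the AP-1 factor JUNB to 6.24 ± 1.17 h for TLN1, which links integrins to actin. The most counted, the apoptosis inhibitor MCL1, had 1.56 ± 0.07 h. None of 19 rose and 8 fell in total by the straight line, where 27.4% of all genes rose and 23.9% fell, and 12 of 19 changed by the curve. Scaled by library totals, 5 of the 19 rose (JUNB, TLN1, TPM1, VCL and ZYX) and the same 8 fell. The largest fall was that of FOSB, an AP-1 factor, with 2.6 CPM at 0 h, 70.5 CPM at 1 h and 0.9 CPM at 12 h (slope over 12 h -5.91 ± 2.03 log2, adjusted p = 0.0287, edgeR), a course with a peak that a line describes poorly (curve, adjusted p = 5.58e-06). Of the RefSeq promoters of this list, 7 of 38 (18.4%) had a CArG box in the searched window, against 1.29% of all promoters. By gene this was 5 of 21. The genes were listed as known SRF targets, so a high share follows from that choice and is no result of these data.

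The genes whose total level ran most like SRF over the 8 libraries, among 6072 genes with a mean of at least 200 reads, were TBC1D22B, SLTM, POGZ, PBRM1 and COP1, with Pearson's r from 0.980 to 0.986 on log2(CPM + 1). SLTM, for example, had 31.5 CPM at 0 h and 87.1 CPM at 12 h, against 100.9 CPM without 4sU. Among those most like ACTB were TMED3, RPS28, RPL37A and YWHAH, with r from 0.987 to 0.989. TMED3 had 160.4 CPM at 0 h and 112 CPM at 12 h, against 143 CPM without 4sU. These are descriptions over 8 libraries chosen as the closest of many genes, and none of the other members was among them.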

How the data were processed

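SLAM-seq 3′-end libraries of THP-1 cells were analysed from raw counts as deposited by the authors: all reads, and T-to-C converted reads, per 3′ UTR segment. Per the submitters' processing notes, hg19 and dm3 were the builds, and the tools included Trim Galore 0.6.5 and bcl2fastq 2.17.1.14. How many conversions made a read labelled, and which aligner and counter were run, the labels do not say. Per the labels, Drosophila S2 spike-in RNA was added; it was not used here. Placement of reads shared with processed pseudogenes, which most of these genes have, is likewise not stated, so their counts are uncertain to that extent. Each gene was taken from its most covered segment, named through GENCODE 29 transcript identifiers (84.9% of transcripts matched). Segments on haplotypes or unplaced contigs (3056) and 85 genes with counts equal to another gene's were left out.

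Trends over the 7 chase libraries were fitted in edgeR 4.0.16 (R 4.3.3), with 5 residual degrees of freedom for a line and 4 for a curve. The p-values measure scatter about a line in time. The labels do not say whether times came from separate cultures. Filters were a mean of 50 reads and at least 20 labelled reads summed over libraries for the label, and a mean of 20 reads for totals. Calls were made at an adjusted p under 0.05. Standard errors of slopes were derived from the F statistic. Half-lives came from a binomial maximum-likelihood fit (scipy 1.17.1) with the background of the library without 4sU shrunk with 100 prior reads. They counted as resolved with a called decline, at least 10 excess reads, an SE of at most 0.5 for the log rate and a value of 0.25 to 24 h. Standard errors were widened by the scatter. Alternatives were DESeq2 1.42.0, other scalings and filters, summed segments, shorter windows and leaving out each library. The fits were also run on simulated counts. For half-lives these followed an exact exponential with counting error only. They therefore do not check the half-life fit where a share first stays flat or scatters more widely.

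Members and lists were chosen with earlier results of these data known. Named genes of each list were the most counted, the shortest and longest resolved half-life, and the largest called rise and fall. ACTB was not among the promoters matched. A gene among those closest to ACTB in profile is not reported here.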

Additional observations from a re-analysis of the deposited data

How the results depend on the processing

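Of the 10 genes, 8 passed the test of a falling labelled share over the 7 chase libraries. With the 0 to 2 h libraries alone 2 passed. When each chase library was left out 5 to 9 passed (the fewest without 12 h, the most without 8 h). Over 0 to 2 h alone the label slope was above 0 for ACTB (0.052 log2 per hour), ACTG1 (0.045), CFL1 (0.035), PFN1 (0.038), TMSB4X (0.059), TMSB10 (0.022), CORO1A (0.065) and LCP1 (0.005), and none of these passed. Leaving out each library, the PFN1 slope ranged from -0.023 (without 8 h) to 0.016 (without 12 h). The straight line in total level called 8 genes, 4 with the 0 to 2 h libraries alone and 7 to 9 leaving out each library. Over 0 to 2 h alone the total slope was 0.254 log2 per hour for VIM and -0.120 for CORO1A, and with library totals, chosen after seeing the data, it was 0.001 for LCP1. The curve called 9 genes, and 8 to 10 leaving out each library. The cause was not tested. Half-lives moved by more than their relative standard error, compared on the log scale, in 29 of 120 alternatives, and 8 of the 10 genes reached the limit of 1000 h with the 0 to 2 h libraries alone. Fitted to labelled CPM without TMM factors, the half-life was 12.8 h for ACTB, 22.9 h for CFL1, 30.3 h for PFN1 and 15.4 h for TMSB4X, each shorter than by the share. It was longer for CORO1A (9.69 h, against 6.78 h by the share) and SRF (2.74 h, against 2.32 h). Ratios of 0 h over no 4sU kept their direction under both other scalings. No paired analysis was possible because each condition has 1 library. With 1 library per condition, differences between single times rest on counting error alone.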
